A study of Mus musculus with 12 samples.

Results

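The genes described here were 10 transcripts of developing neutrophils that encode granule proteins or, for S100a8 and S100a9, cytosolic proteins. All were taken by gene symbol from a deposited expression table of 29838 genes. They fell into 4 primary granule genes (Elane, Mpo, Prtn3 and Ctsg) and 6 later genes (S100a8, S100a9, Ngp, Camp, Ltf and Lcn2), a division made from their known timing and not from these data. All 10 were among the 12994 genes tested, which reached at least 1 FPKM (fragments per kilobase of transcript, scaled to the mapped fragments of the library) in at least 3 of the 12 libraries. The libraries came from bone marrow of wild-type male C57BL/6 mice aged 8 weeks, with no treatment and no altered allele in any group. Cells carrying CD45 were first removed with magnetic beads. Live cells (7-AAD-) lacking CD45, CD11b and GR1, the latter markers read in a single fluorescence channel, were then sorted into proerythroblasts (Pro, CD44 high and Ter119 low) and, among Ter119+ cells by CD44 against forward scatter, into basophilic (Baso), polychromatic (Poly) and orthochromatic (Ortho) erythroblasts. Each stage had 3 libraries, numbered replicates 1 to 3. For Ortho replicates 2 and 3 the cell type label gave only the general word erythroblast, and their stage was taken from the title. Nothing states whether the libraries came from separate mice, so the p-values measure the spread between these libraries, which may be technical.

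Neutrophils make their granule proteins in waves. At the promyelocyte stage the cell transcribes the serine proteases and myeloperoxidase of the primary, or azurophil, granule, and at the myelocyte and metamyelocyte stages it switches to the proteins of the specific granule, while S100a8 and S100a9 fill the cytosol of the maturing cell. C/EBP and PU.1 family factors are the classical activators of these genes. None of the 10 is a classical gene of red cell precursors. In bulk samples such as these, a change in how many cells of a type are present and a change in RNA per cell cannot be told apart.

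The erythroid identity of the libraries was visible in hemoglobin, whose genes took 6.98% to 10.7% of all summed FPKM in Pro, 33.2% to 36.7% and 34.8% to 37.6% in Baso and Poly, and 47.2% to 52.6% in Ortho. The summed FPKM ranged from 505624 to 691033 per library. The number of reads behind each library is unknown, because FPKM values keep no depth. On the log2(FPKM + 1) scale the median fold change of all tested genes was below 0 against Pro, at -0.23 for Baso, -0.20 for Poly and -0.42 for Ortho. Changes are therefore also given relative to this median.

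The members lie on 6 chromosomes of mm10, and all are protein coding in the GENCODE M21 annotation. Prtn3 (chr10:79874476-79883174, plus strand) and Elane (chr10:79886247-79888215, plus strand) are neighbours 3.07 kb apart, whereas Mpo (chr11:87793581-87804413, plus strand) and Ctsg (chr14:56099881-56102574, minus strand) lie on chromosomes of their own. S100a8 (chr3:90668978-90670035, plus strand) and S100a9 (chr3:90692632-90695721, minus strand) are separated by 22.6 kb. Camp (chr9:109847379-109849617, minus strand), Ngp (chr9:110419747-110423012, plus strand) and Ltf (chr9:111019271-111042767, plus strand) share a chromosome at distances of 570.1 kb and more. Lcn2 lies at chr2:32384633-32388252 on the minus strand.

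The upstream sequences were searched for letters that the known activators bind. The sequence 5′ of 6 members is printed, because in these 6 the window holds a match and at least 100 of its bases lie outside the annotated gene body. They come from RefSeq promoters on GRCm38.p6 (mm10), and bases inside the annotated gene were left off the 3′ end. Capitals mark TTGCNNAA (C/EBP) or GAGGAA (PU.1), searched on both strands, so that a PU.1 match on the other strand reads TTCCTC. Elane was read from chr10:79886062-79886246 on the plus strand, Ctsg from chr14:56102575-56102824 on the minus strand, S100a8 from chr3:90668821-90668977 on the plus strand, S100a9 from chr3:90695722-90695971 on the minus strand, Ngp from chr9:110419558-110419746 on the plus strand and Ltf from chr9:111019042-111019270 on the plus strand.
Elane: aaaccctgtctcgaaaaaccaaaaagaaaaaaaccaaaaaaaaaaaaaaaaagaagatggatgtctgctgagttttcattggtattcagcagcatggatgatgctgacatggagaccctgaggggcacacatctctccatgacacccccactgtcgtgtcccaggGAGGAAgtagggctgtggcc
Ctsg: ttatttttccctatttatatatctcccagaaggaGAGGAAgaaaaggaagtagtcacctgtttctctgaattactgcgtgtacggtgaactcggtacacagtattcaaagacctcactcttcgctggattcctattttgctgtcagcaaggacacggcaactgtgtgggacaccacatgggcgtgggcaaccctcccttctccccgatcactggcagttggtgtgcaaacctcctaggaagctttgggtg
S100a8: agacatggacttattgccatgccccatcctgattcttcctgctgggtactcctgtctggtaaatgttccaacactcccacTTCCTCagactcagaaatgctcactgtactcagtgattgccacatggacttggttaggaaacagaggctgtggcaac
S100a9: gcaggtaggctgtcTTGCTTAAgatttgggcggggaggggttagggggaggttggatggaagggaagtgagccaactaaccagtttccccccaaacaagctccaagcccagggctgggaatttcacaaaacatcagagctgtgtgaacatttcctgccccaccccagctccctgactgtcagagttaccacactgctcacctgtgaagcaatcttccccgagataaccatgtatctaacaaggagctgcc
Ngp: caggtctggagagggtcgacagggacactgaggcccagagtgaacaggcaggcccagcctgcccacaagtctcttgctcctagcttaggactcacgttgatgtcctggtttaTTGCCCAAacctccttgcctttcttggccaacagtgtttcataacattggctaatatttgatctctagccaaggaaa
Ltf: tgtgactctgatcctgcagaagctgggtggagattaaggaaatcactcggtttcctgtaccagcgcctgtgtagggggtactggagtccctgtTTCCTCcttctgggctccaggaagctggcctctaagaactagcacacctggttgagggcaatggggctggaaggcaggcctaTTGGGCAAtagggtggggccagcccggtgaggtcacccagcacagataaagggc

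In windows of 250 bases before to 50 bases after each RefSeq start, all 10 members were found. The PU.1 letters GAGGAA were in 4 of 4 primary granule promoters and in 3 of 6 later ones, against 28.3% of all 27025 promoters. The first base of the match lay 85 bases before the start in Elane, 95 in Prtn3 and 216 in Ctsg. In Prtn3 and Lcn2 all 250 bases before the RefSeq start lay inside the annotated gene, as did 203 of them in Mpo and 161 in Camp. The C/EBP letters TTGCNNAA were in 0 of 4 primary granule promoters and in 4 of 6 later ones (S100a9, Ngp, Ltf and Lcn2), against 10.8% of all promoters. Camp held neither set of letters, and the difference between the groups was not tested. The GATA letters AGATAA, a core bound by GATA factors, were in 2 of 10 members, S100a9 and Ltf, against 11.4% of all. No match overlapped a match of another motif. A match is only a run of letters, and an absence says only that these letters are not in this window.

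All 10 transcripts were lowest on average in Pro and were abundant in every stage. S100a9, a calcium-binding protein of the neutrophil cytosol, had rank 13 of all tested genes by mean FPKM in Pro and rank 5 in the other stages. Its partner S100a8 moved from rank 24 in Pro to 7 in Baso and 6 in Poly and in Ortho. The 10 members together took 1.45% to 1.75% of all summed FPKM in Pro, and 2.09% to 2.53%, 2.73% to 3.32% and 2.09% to 2.72% in the Baso, Poly and Ortho libraries. With hemoglobin genes left out of the total, these shares were 1.57% to 1.88%, 3.30% to 3.93%, 4.38% to 5.09% and 4.41% to 5.16%.

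**Figure D1:**
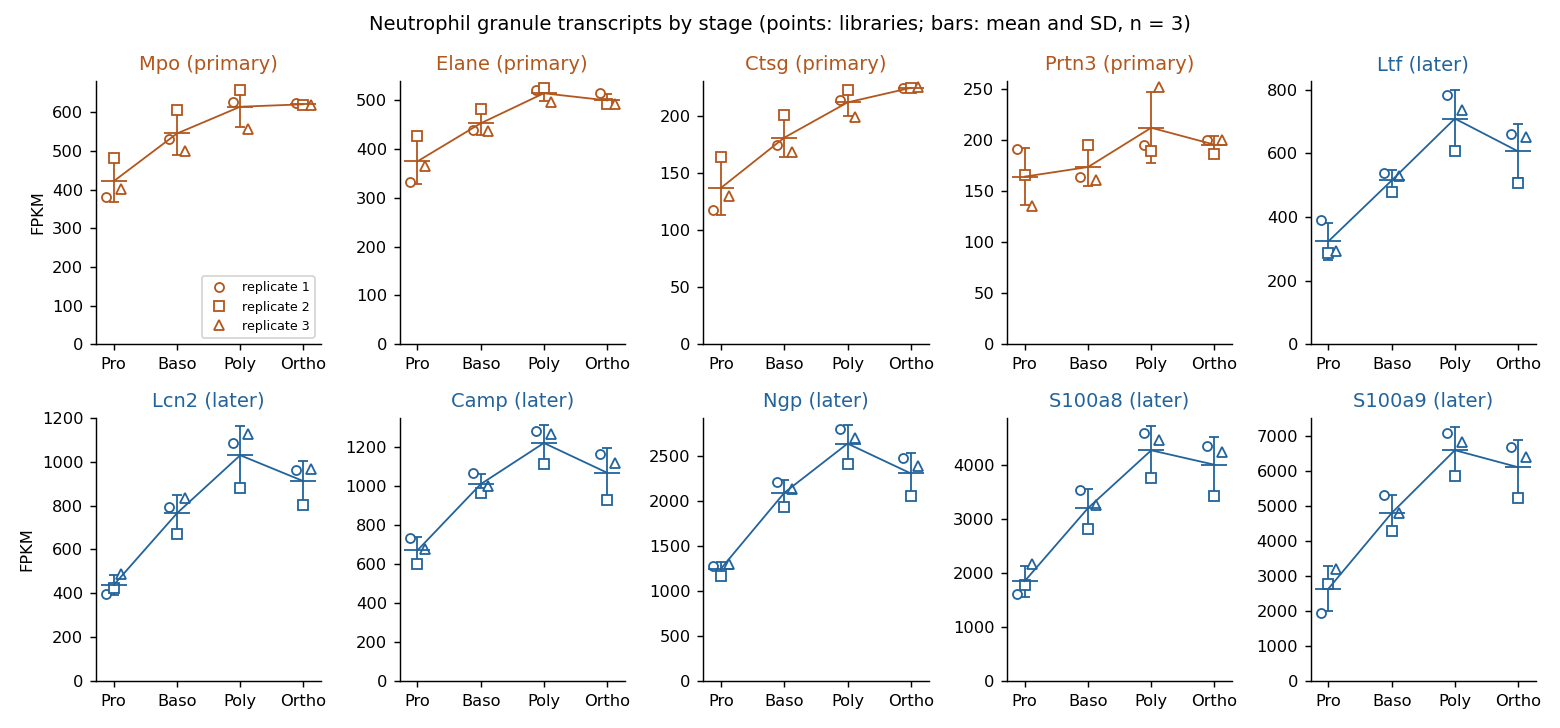
FPKM of the 10 members by erythroblast stage, one panel per gene with its own axis from 0. Symbols are libraries (circle, square and triangle for replicates 1, 2 and 3), and bars show the mean and SD of 3 libraries. All 6 later genes have their highest mean in Poly, and Mpo and Ctsg have theirs in Ortho.

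Among the primary granule genes, Mpo, which encodes the peroxidase that makes hypochlorous acid, was the most abundant. Its level was 382.1, 482.6 and 401.0 FPKM in the Pro libraries, 529.9, 606.7 and 499.3 in Baso, 627.8, 658.2 and 557.6 in Poly, with 624.0, 620.0 and 618.4 in Ortho. Every library of the 3 later stages lay above every Pro library, and the Ortho libraries lay within the Poly range. Mpo rose by 0.37 ± 0.10 (log2 fold change ± SE), 0.55 ± 0.10 and 0.56 ± 0.10 for Baso, Poly and Ortho against Pro (limma with Benjamini-Hochberg adjustment, adjusted p = 0.0102, 0.000759 and 0.000441).

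Elane encodes neutrophil elastase. It measured 333.4, 426.4 and 364.9 FPKM in Pro, 438.9, 481.7 and 438.1 in Baso, 521.7, 524.7 and 497.3 in Poly, with 515.6, 492.2 and 492.0 in Ortho. The Pro libraries were the lowest, and the Ortho libraries overlapped those of Poly. The log2 fold change was 0.28 ± 0.09, 0.46 ± 0.09 and 0.42 ± 0.09 for Baso, Poly and Ortho against Pro (adjusted p = 0.0189, 0.000731 and 0.00105, limma). In Baso it no longer passed when only Baso and Pro entered the fit (adjusted p = 0.0838), nor without Pro replicate 1 or Baso replicate 2.

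Ctsg encodes cathepsin G, another protease of the primary granule. It stood at 117.8, 163.6 and 129.5 FPKM in Pro, 174.2, 200.6 and 168.0 in Baso, 213.6, 222.4 and 199.3 in Poly, with 224.26, 224.32 and 224.88 in Ortho. Ctsg was the one member whose 3 Ortho libraries all lay above its 3 Poly libraries, by a margin smaller than the spread within Poly. It rose by 0.41 ± 0.11, 0.64 ± 0.11 and 0.72 ± 0.11 for Baso, Poly and Ortho against Pro (adjusted p = 0.00837, 0.000382 and 0.000103, limma).

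Prtn3, the neighbour of Elane, encodes proteinase 3. Its levels were 191.9, 166.1 and 135.3 FPKM in Pro, 164.2, 195.8 and 161.6 in Baso, 195.2, 189.6 and 252.4 in Poly, with 200.4, 186.3 and 200.7 in Ortho. The libraries overlapped between every pair of stages compared. Its log2 fold change passed the test in Poly (0.37 ± 0.14, adjusted p = 0.0344) and not in Baso (0.09 ± 0.14, adjusted p = 0.607) or Ortho (0.26 ± 0.14, adjusted p = 0.104, limma). In Poly it no longer passed without Pro replicate 2, Pro replicate 3 or Poly replicate 3, where the fold change ranged down to 0.24. Nor did it pass with the replicate number as a block (limma, adjusted p = 0.0539) or with no filter on low values (0.0934). With only Poly and Pro in the fit the adjusted p was 0.0767.

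The 2 cytosolic genes of the later group were the highest of all members. S100a9 was at 1928, 2768 and 3203 FPKM in Pro, 5303, 4283 and 4787 in Baso, 7091, 5838 and 6831 in Poly, with 6687, 5210 and 6406 in Ortho. S100a8 was at 1603, 1780 and 2167 FPKM in Pro, 3529, 2823 and 3251 in Baso, 4589, 3763 and 4465 in Poly, with 4346, 3423 and 4246 in Ortho. For both genes every library of Baso, Poly and Ortho lay above every Pro library, and Poly and Ortho overlapped. S100a9 had the largest change of the 10 members in each comparison with Pro, with a log2 fold change of 0.89 ± 0.18, 1.35 ± 0.18 and 1.24 ± 0.18 for Baso, Poly and Ortho against Pro (adjusted p = 0.00147, 5.59e-05 and 6.98e-05, limma). S100a8 rose by 0.80 ± 0.15, 1.21 ± 0.15 and 1.12 ± 0.15 in the same comparisons (adjusted p = 0.000722, 2.45e-05 and 2.75e-05). The S100a9 to S100a8 ratio lay between 1.47 and 1.56 in 11 libraries and was 1.20 in Pro replicate 1. The 2 proteins form the heterodimer calprotectin.

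Of the specific granule genes, Ngp, which encodes neutrophilic granule protein, was the most abundant. It reached 1274, 1165 and 1302 FPKM in Pro, 2210, 1924 and 2128 in Baso, 2799, 2407 and 2694 in Poly, with 2478, 2048 and 2382 in Ortho. The Poly libraries were all above the Baso libraries, and those of Ortho overlapped Poly at its lower end. The log2 fold change was 0.74 ± 0.10, 1.08 ± 0.10 and 0.88 ± 0.10 for Baso, Poly and Ortho against Pro (adjusted p = 0.000101, 4.5e-06 and 1.11e-05, limma).

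Lcn2 encodes lipocalin 2, which binds bacterial siderophores. Its levels were 397.8, 426.1 and 489.7 FPKM in Pro, 792.2, 670.7 and 832.4 in Baso, 1083.5, 878.6 and 1127.1 in Poly, with 961.6, 804.1 and 968.8 in Ortho. The Pro libraries stood well below the rest. Lcn2 rose by 0.80 ± 0.13, 1.23 ± 0.13 and 1.06 ± 0.13 against Pro in Baso, Poly and Ortho (adjusted p = 0.000271, 8.06e-06 and 1.46e-05, limma).

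Ltf encodes lactoferrin, an iron-binding protein of the specific granule. It was at 390.4, 285.7 and 294.2 FPKM in Pro, 537.3, 477.1 and 529.2 in Baso, 784.6, 607.4 and 734.8 in Poly, with 659.3, 508.1 and 650.9 in Ortho. Pro was again lowest in every library, and 1 Ortho library fell to the Baso range. Ltf rose by 0.68 ± 0.14, 1.14 ± 0.14 and 0.91 ± 0.14 (adjusted p = 0.00193, 3.77e-05 and 0.000133, limma).

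Camp, the gene of the cathelicidin antimicrobial peptide, changed least among the later genes in each comparison with Pro. Its values were 732.5, 597.7 and 674.2 FPKM in Pro, 1064, 960.1 and 997.8 in Baso, 1280, 1111 and 1264 in Poly, with 1159, 924.6 and 1114 in Ortho. No library of the later stages reached down to Pro, and the lowest Ortho library lay below all Baso libraries. The log2 fold change was 0.60 ± 0.11, 0.87 ± 0.11 and 0.67 ± 0.11 (adjusted p = 0.000717, 3.41e-05 and 0.000155, limma).

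Counted over the members, 9 of 10 were higher in Baso than in Pro at an adjusted p under 0.05, against 14.9% of all tested genes. In Poly 10 of 10 passed, against 23.3%, and in Ortho 9 of 10, against 22.7%. In the lower direction 42.1%, 42.7% and 53.2% of all genes passed in Baso, Poly and Ortho, and 0 members did. When a log2 fold change of at least 1 was also required, 0 members were called in Baso (1.82% of all genes), 5 in Poly (3.59%) and 3 in Ortho (6.33%). The 5 in Poly were S100a8, S100a9, Ngp, Ltf and Lcn2, and the 3 in Ortho were S100a8, S100a9 and Lcn2, all of the later group. The count in Ortho depended on the scale. It was 0 with every library set to the same FPKM sum. It was 8 without hemoglobin genes, including the primary genes Mpo and Ctsg (15.3% of all genes), and 7 with median centred libraries, including Ctsg (16.0%). These 3 comparisons share the Pro libraries. With 3 libraries on each side, an exact permutation test of a single gene cannot go below p = 0.1, so the calls rest on the spread that limma pools across genes.

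The primary granule genes had smaller fold changes than the later genes, which is given as a description with no test. The median log2 fold change of the 4 primary genes was 0.33, 0.50 and 0.49 for Baso, Poly and Ortho against Pro, and that of the 6 later genes was 0.77, 1.17 and 0.98. In Baso and Poly the ranges did not meet, with Ctsg as the highest primary gene at 0.41 and 0.64 and Camp as the lowest later gene at 0.60 and 0.87. In Ortho they did, since Ctsg (0.72) passed Camp (0.67). Relative to the median of all genes, the primary genes stood at 0.55, 0.71 and 0.92, and the later genes at 0.998, 1.38 and 1.41.

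**Figure D2:**
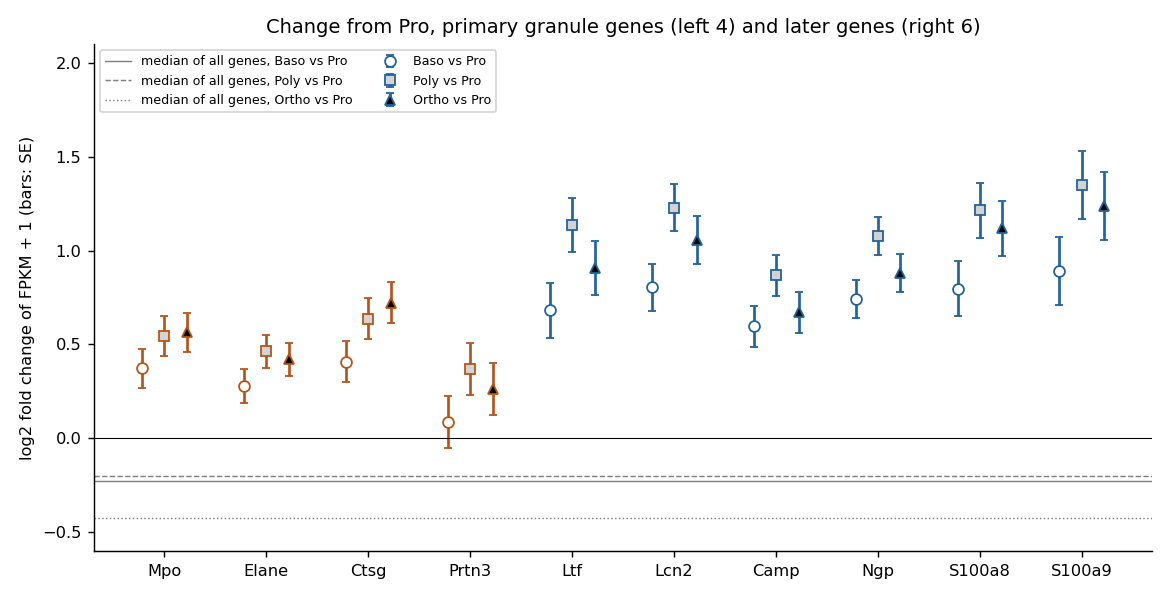
Log2 fold change of FPKM + 1 against Pro for each member in Baso (circles), Poly (squares) and Ortho (triangles). Bars are the SE from the limma model. Grey lines mark the median of all 12994 tested genes, and all 10 members lie above it in each comparison, with the 6 later genes on the right.

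Whether primary genes passed the test depended on the scale. When every library was set to the same FPKM sum, Elane, Mpo and Ctsg no longer passed in Baso (adjusted p = 0.338, 0.112 and 0.074), Elane and Mpo no longer passed in Ortho (0.581 and 0.089), and Prtn3 no longer passed in Poly (0.254). All 6 later genes still passed in the 3 comparisons on that scale. The shares of all genes that passed as higher there were 8.84%, 17.5% and 14.5% in Baso, Poly and Ortho. With hemoglobin genes left out before scaling, all 10 members passed in each of the 3 comparisons. The shares of all genes rose as well, to 27.1%, 35.8% and 34.8%, from 14.9%, 23.3% and 22.7% on the main scale. The members lay above the median of all genes in 10 of 10 cases against Pro on every scale tried. A change of scale shifts almost all genes of a library together, so this agreement between scales was nearly fixed in advance. Between the equal-sum scale and the scale without hemoglobin, the median of all genes in Ortho against Pro shifted from -0.73 to -0.01.

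In each library the 6 later genes summed to several times the 4 primary ones. The ratio of the sums was 6.17, 5.67 and 7.89 in Pro, 10.3, 7.50 and 9.89 in Baso, 11.3, 9.16 and 11.4 in Poly, with 10.4, 8.48 and 10.3 in Ortho. Poly and Ortho did not overlap Pro, whereas the lowest Baso library lay inside the Pro range. This ratio is independent of how a library is scaled. The later sum went from 6325 to 8129 FPKM in Pro to 14604 to 17627 in Poly, and the primary sum from 1025 to 1239 in Pro to 1507 to 1595 in Poly and 1523 to 1564 in Ortho.

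From Baso to Poly all 10 members were higher on average, and from Poly to Ortho 8 of 10 were lower. In the fit of all 12 libraries without a replicate term, 0 of 10 passed for Poly against Baso (6.58% of all genes passed as higher) and 6 had an unadjusted p under 0.05, while 0 of 10 passed for Ortho against Poly (21.7% of all genes passed as lower and 4.43% as higher) and 0 had an unadjusted p under 0.05. Their median log2 fold change was 0.31 for Poly against Baso, where the median of all genes was 0.03, and -0.11 for Ortho against Poly, where it was -0.08. In 7 of 10 members all Poly libraries lay above all Baso libraries. The share of all genes with such a separation was not computed, so this count is only a description.

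The replicate number linked libraries of Baso, Poly and Ortho, and a fit of those 9 libraries with the number as a block gave a different count. In that paired fit 8 of 10 members were higher in Poly than in Baso, against 12.6% of all genes. The change was 0.43 for Lcn2, 0.46 for S100a9, 0.42 for S100a8, 0.33 for Ngp, 0.46 for Ltf and 0.27 for Camp (limma, adjusted p = 0.0023, 0.0024, 0.00241, 0.00345, 0.00378 and 0.0122). Among the primary genes, Elane (0.18, adjusted p = 0.0348) and Ctsg (0.23, adjusted p = 0.0318) passed, and Mpo (0.17, adjusted p = 0.084) and Prtn3 (0.28, adjusted p = 0.137) did not. From Poly to Ortho 4 of 10 members were lower with the block, against 24.5% of all genes, and all 4 were specific granule genes. Ngp fell by 0.20 (adjusted p = 0.00637), Camp by 0.20 (adjusted p = 0.0231), Ltf by 0.23 (adjusted p = 0.0164) and Lcn2 by 0.17 (adjusted p = 0.0126). S100a8 (-0.10, adjusted p = 0.12) and S100a9 (-0.11, adjusted p = 0.089) did not pass. Of the 3 other scales, tried in the same blocked fit after the data were seen, the falls held on 1. Without hemoglobin genes the values were -0.0516 for Ngp, -0.0527 for Camp, -0.0838 for Ltf and -0.0289 for Lcn2 (adjusted p = 0.248, 0.39, 0.193 and 0.603), and with median centring 0 members were lower as well. On both of these scales Ctsg was the only member that passed as higher in Ortho than in Poly. Its change was 0.23 without hemoglobin and 0.23 with median centring (limma, adjusted p = 0.012 and 0.0146), where 14.5% and 16.5% of all genes passed as higher. At the same FPKM sum 7 of 10 were lower, against 37.7% of all genes. For Poly against Baso the blocked count was 9 without hemoglobin, 6 with median centring and 7 at the same sum. The shares of all genes were 15.3%, 9.8% and 11.5%. A block over all 12 libraries gave 5 of 10 for Poly against Baso and 0 of 10 for Ortho against Poly, with no share of all genes computed.

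Within stages the primary and later genes separated the replicates in different ways. In Baso, in Poly and in Ortho, replicate 2 was the lowest library for 6 of 6 later genes, by 0.13, 0.17 and 0.20 on average below the stage mean (log2). The share of all genes lowest in replicate 2 was not computed. Replicate 2 also had the highest FPKM sum and hemoglobin share in these stages (36.7%, 37.6% and 52.6%), whose part was not tested. In the same replicate the primary genes were highest for 4 of 4 in Baso and 3 of 4 in Poly, as in Pro (3 of 4), but for 0 of 4 in Ortho. The later to primary ratio was accordingly lowest in replicate 2 in all 4 stages. After the stage means were removed, the median Pearson correlation over the 12 libraries was 0.79 across the 15 pairs of later genes, 0.41 across the 6 pairs of primary genes and -0.35 across the 24 mixed pairs. Elane, Mpo and Ctsg correlated with each other at 0.90 to 0.97, whereas Prtn3 stood at -0.11 to -0.07 against those 3. The libraries share their preparation within a replicate number to an unknown extent, so these are descriptions.

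**Figure D3:**
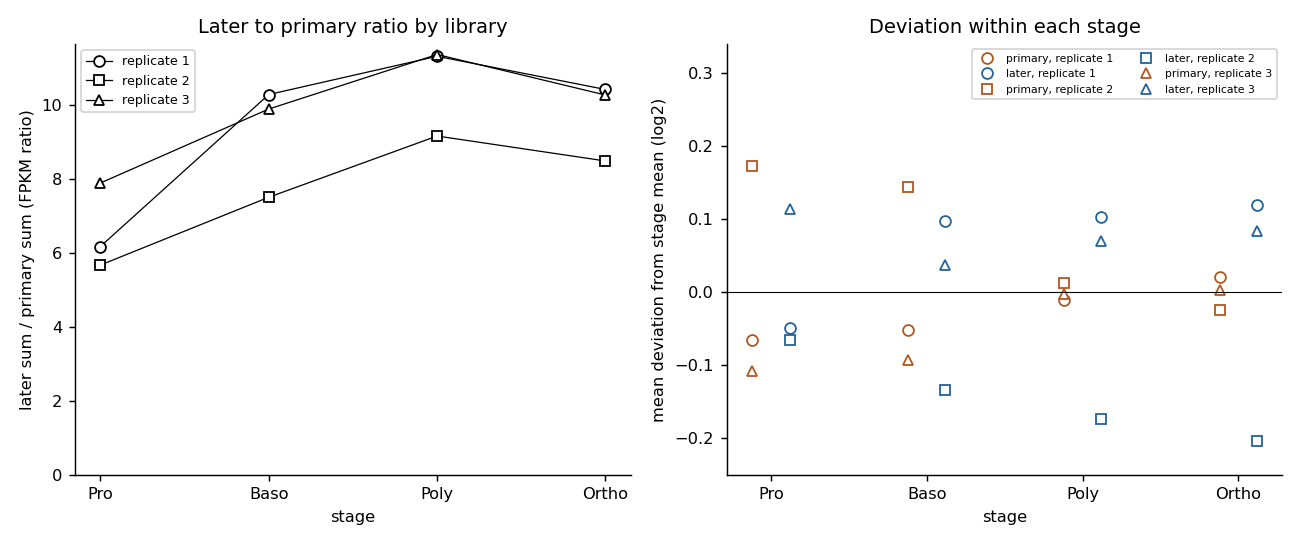
Left, ratio of the summed FPKM of the 6 later genes to that of the 4 primary genes in each library, with lines joining libraries of the same replicate number. Right, mean log2 deviation of the primary (orange) and later (blue) genes from their stage mean by replicate. Replicate 2 has the lowest ratio in all 4 stages, and its later genes lie below the stage mean in each.

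Most genes of the wider neutrophil program were also higher than in Pro, read against the same background shares as the members. Of 9 other primary granule and promyelocyte genes tested, 6 were higher in Baso, 8 in Poly and 8 in Ortho than in Pro (limma, adjusted p under 0.05), and none was lower. The most abundant was Lyz2, lysozyme of myeloid cells, at 1129 FPKM in Pro and 2652 in Ortho, with a log2 fold change of 1.23 in Ortho (adjusted p = 5.39e-07). Ctsc, the protease that activates the granule serine proteases, rose by 1.21 in Ortho (adjusted p = 2.26e-05). Bpi was near 0 FPKM in all stages and was not tested.

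Of 18 specific and gelatinase granule genes, 16 were higher in Baso and 18 in both Poly and Ortho. Of them, 10 and 7 rose at least 2-fold in Poly and Ortho, against 3.59% and 6.33% of all genes. Chil3, a chitinase-like protein, was the most abundant at 537 FPKM in Pro and 1102 in Ortho (log2 fold change 1.03, adjusted p = 2.66e-06). The collagenase gene Mmp8 rose by 1.40 in Poly (adjusted p = 7.88e-05) and 1.48 in Ortho (adjusted p = 3.2e-05), and the gelatinase gene Mmp9 by 1.32 in each (adjusted p = 2.15e-05 and 1.24e-05). Cybb, the catalytic subunit of the phagocyte oxidase, rose by 1.10 in Poly (adjusted p = 2.23e-06).

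Of 18 genes of the mature neutrophil, 12 were higher in Baso, 16 in Poly and 16 in Ortho. Retnlg was the most abundant, at 306 FPKM in Pro and 652 in Ortho (log2 fold change 1.09, adjusted p = 0.000236). The formyl peptide receptor Fpr1 rose by 1.33 in Poly (adjusted p = 1.32e-05), and Ifitm6 by 1.42 (adjusted p = 7.6e-06). Of 10 regulators of granulopoiesis, 5 were higher in Baso, 9 in Poly and 8 in Ortho. Spi1, the gene of PU.1, rose by 0.82 in Poly (adjusted p = 2.51e-06), and Cebpe, needed for the specific granule stage, by 0.84 (adjusted p = 3.56e-06). Irf8, which favours monocytes over neutrophils, was the one regulator past 2-fold in Ortho (1.13, adjusted p = 1.48e-05).

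The antigens used in the sort to exclude leukocytes were measured as transcripts in every stage. Ptprc, which encodes CD45, was at 26.9 ± 3.34 FPKM (SD, n = 3) in Pro and 57.5 ± 6.70 in Ortho (log2 fold change 1.07, limma, adjusted p = 9.07e-06). Ly6g, a GR1 antigen of neutrophils, was at 21.4 ± 0.721 in Pro, 35.5 ± 2.90 and 48.3 ± 5.57 in Baso and Poly, and 45.2 ± 4.22 in Ortho (adjusted p = 0.000126, 2.56e-06 and 2.23e-06 against Pro). Itgam, which encodes CD11b, was listed under 2 identifiers whose reads may be split, at 20.0 and 9.88 FPKM in Pro and 37.2 and 31.3 in Ortho, of which the second passed the test in Ortho (adjusted p = 0.000439) and the first did not (adjusted p = 0.0508). The 10 antigen identifiers tested include the sort marker Cd44 and the transferrin receptor Tfrc, not used in the sort. Of the 10, 5 were higher in Baso, 10 in Poly and 8 in Ortho than in Pro. The shares of all genes were 14.9%, 23.3% and 22.7%.

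Several lists of markers of other bone marrow cells held genes that were higher after Pro, and their part in the result was not tested. The shares of all genes that passed in Baso, Poly and Ortho were 14.9%, 23.3% and 22.7% as higher, and 42.1%, 42.7% and 53.2% as lower. Of 6 basophil and mast cell genes tested, 6 were higher in each stage than in Pro, with a summed level of 230.1 to 370.9 FPKM in Pro and 625 to 780.4 in Poly. Of 9 eosinophil genes, 1 was higher in Baso, 9 in Poly and 7 in Ortho, with sums of 768 to 1301 FPKM in Pro and 1511 to 1785 in Poly. Of 10 B lineage genes, 6, 9 and 10 were higher, and their sums went from 109.6 to 157 FPKM in Pro to 244 to 319 in Ortho. Of 15 monocyte and macrophage genes 9 were tested, of which 5, 8 and 7 were higher, and their sums were 223 to 276 FPKM in Pro and 583 to 651 in Ortho. The macrophage markers C1qa, C1qb, C1qc, Cd163, Mrc1 and Siglec1 each averaged under 1 FPKM in every stage. Of 8 T and NK cell genes 3 were tested, of which 0, 1 and 2 were higher, with sums of at most 10.4 FPKM in any library. Of 7 multipotent progenitor genes, 2, 4 and 4 were higher. Of 8 megakaryocyte and platelet genes 3, 6 and 6 were lower and 0, 0 and 1 higher, with a mean sum of 102 FPKM in Pro and 43.2 in Ortho. Erythroid genes other than globins were higher for 8, 6 and 4 of 11, and lower for 0, 1 and 5.

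**Figure D4:**
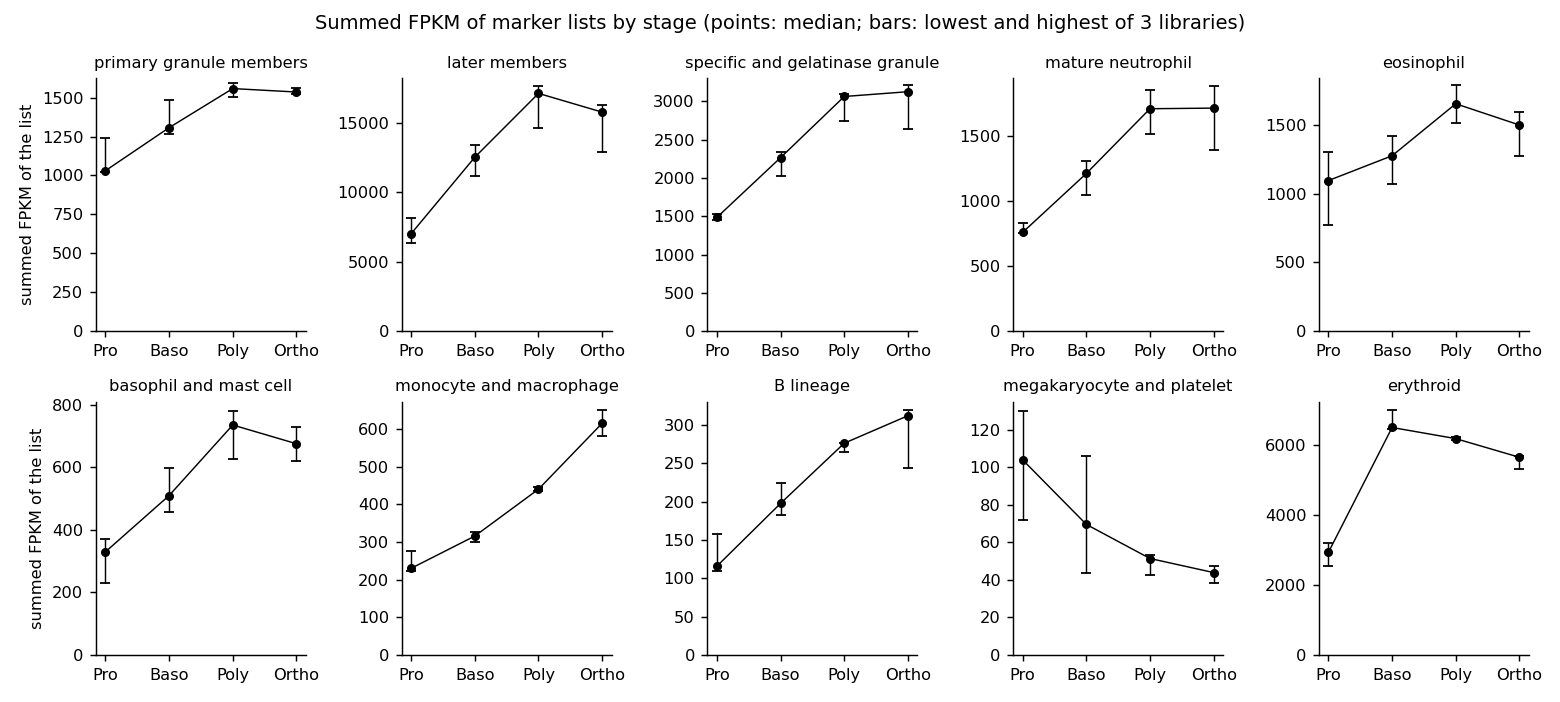
Summed FPKM of each marker list by stage, with points at the median and bars from the lowest to the highest of 3 libraries, each panel with its own axis from 0. The granule, mature neutrophil, basophil, monocyte and B lineage sums are lowest in Pro, and the megakaryocyte sum is highest there.

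Genes outside the members were compared with the mean profile of each group over the 12 libraries, among 9314 candidates. The profile of the later genes was most closely followed by Pglyrp1 (Pearson r = 0.995), Trem3 (0.990), Mrgpra2b (0.988), Cd177 (0.988) and Mmp25 (0.987). The profile of the primary genes was most closely followed by Cplx2 (0.981), Cpa3 (0.978), Spib (0.978), Vat1 (0.976) and Atp1b1 (0.976). Pglyrp1 averaged 126 FPKM in Pro and 194, 257 and 233 in the stages that follow, and Cpa3 averaged 15.9, 28.0, 38.0 and 35.8. The 12 points share their stages, and the values are a description.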

How the data were processed

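Bone marrow erythroblasts of 4 stages were profiled by RNA-seq in 12 libraries. Per the labels and the methods, the authors aligned reads with Hisat2 to mm10 and counted them with FeatureCounts. The deposited table holds FPKM values made by the authors, and the tool that made them, its version and the annotation release are not given in the sources used here. The labels name Trizol with NEBNext Ultra, whereas the methods name another lysis and library kit. The authors' DESeq2 test needs counts and was not run on FPKM. The table had 29839 lines, of which 1 repeated a gene, and 0 columns belonged to no sample. Sequencing depth is unknown, so no counting interval is given.

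Values were analysed as log2(FPKM + 1), a scale that understates the change of low genes, for genes at 1 FPKM or more in at least 3 libraries. All 4 stages were fitted with limma 3.58.1 in R 4.3.3, with two-sided tests and Benjamini-Hochberg adjustment over all genes tested. Genes were called where the adjusted p was under 0.05 and the log2 fold change reached 1 in either direction. Descriptions and figures were made with Python 3.11.15. The script was tested on simulated data. Replicate numbers were tested as pairs from the correlation of same-numbered libraries after removal of stage means. It was 0.182 to 0.238 for Baso with Poly, 0.156 to 0.264 for Baso with Ortho, 0.156 to 0.319 for Poly with Ortho, and 0.00524 to 0.0968 for Pro with the others. Between libraries of different number it was -0.206 to 0.0287 among Baso, Poly and Ortho, and -0.123 to 0.0545 for Pro with the others. The numbers therefore paired Baso, Poly and Ortho. Whether they also paired Pro was not settled. For Pro with Poly it was 0.0579 to 0.0968 at the same number and -0.0768 to 0.0125 at different numbers. The labels do not say what a number stands for. Alternatives were another pseudocount, filter, scale or set of stages, a replicate block (also on each scale, added after the data were seen), and each library left out in turn.

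The members and gene lists were chosen with earlier results of these data known. The named genes were the members, the 3 most abundant genes of each list, list genes past the call, and the 5 genes most like each profile. From the lists, genes were selected within that rule for length. Bpi, Spi1, Cebpe, Epx, Ptprc, Ly6g, Itgam, Cd44 and the 6 macrophage markers near 0 lie outside that rule in at least 1 comparison and were named after their values were seen. Ly76, Ahsp and Tpsb2 were not analysed here, nor were protein sequences.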

Additional observations from a re-analysis of the deposited data

How the results depend on the processing

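Of 1080 single-gene values recomputed under the alternatives, 970 kept their direction and their side of the threshold. Of the rest, 69 came to pass the test, 15 no longer passed and 26 changed sign. Many of these fits could not move the fold change. Examples are leaving out a library of neither stage compared, or adding the replicate block on the same scale. A kept direction was fixed in advance there. The number of members called with the fold limit was 0, 5 and 3 for Baso, Poly and Ortho against Pro, and it depended on the scale. With the fold limit kept, it was 3 in Poly (2.17% of all genes) and 0 in Ortho (2.45%) at the same FPKM sum. With hemoglobin genes left out it was 4 in Baso (3.74%) and 8 in Ortho (15.3%). With median centred libraries it was 4 in Baso (4.26%) and 7 in Ortho (16.0%). The shares on the main scale were 1.82%, 3.59% and 6.33% in Baso, Poly and Ortho. With the fold limit dropped, the number of members was 9, 10 and 9, against 14.9%, 23.3% and 22.7% of all genes as higher. Leaving out a library gave 0 to 1 in Baso, the 1 being S100a9 without Pro replicate 3. With and without the replicate block for Ortho against Poly, the scales gave the same changes of sign. At the same FPKM sum Prtn3 changed sign in Baso (-0.0909) and Ortho (-0.10), and, for Ortho against Poly, so did Mpo (-0.17) and Ctsg (-0.10). For Ortho against Poly, Elane, Prtn3, S100a8 and S100a9 changed sign without hemoglobin (0.10, 0.0376, 0.0481 and 0.0301) and with median centring (0.11, 0.0434, 0.0532 and 0.0352). When a library was left out, Prtn3 in Baso against Pro ranged from -0.0441 (without Pro replicate 3) to 0.21. For Ortho against Poly the ranges were -0.0502 to 0.0693 for Mpo (sign changed without Poly replicate 3), -0.18 to 0.0244 for Prtn3 (likewise) and -0.18 to 0.0133 for S100a8 (without Ortho replicate 2). None of the values that changed sign had passed the test, and the cause was not tested. For Poly against Baso, 0 to 4 members passed when a library was left out (any without Pro replicate 1, 2 or 3 or Poly replicate 2), 4 with only those 2 stages in the fit, and 5 with the replicate block on all 12 libraries. The shares of all genes in those fits were not computed. The block on Baso, Poly and Ortho gave 8, against 12.6% of all genes, and 6 to 9 over the scales, against 9.8% to 15.3%. For Ortho against Poly it gave 4 lower members (24.5% of all genes), which became 7 at the same FPKM sum (37.7%). They became 0 on the other scales, without hemoglobin (18.6%) and with median centring (17.5%). On those other scales Ctsg alone of the 10 members passed as higher with the block, against 14.5% and 16.5% of all genes. Against Pro the block over all 12 libraries ended only the result of Prtn3 in Poly (0.37, limma, adjusted p = 0.0539).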

Other observations

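Eosinophil granule genes were the most abundant of the non-neutrophil leukocyte lists. Prg2, which encodes major basic protein, averaged 654 FPKM in Pro and 747, 960 and 861 in Baso, Poly and Ortho, and Epx, the eosinophil peroxidase, 66.2, 77.7, 99.2 and 85.8. Prg2 was higher in Poly (log2 fold change 0.57, adjusted p = 0.00805, limma) and in Ortho (0.41, adjusted p = 0.0344) than in Pro, and Epx in Poly only at this threshold (0.61, adjusted p = 0.0111), with 0.40 in Ortho (adjusted p = 0.0637). These fold changes lay near those of the primary granule neutrophil genes, but the difference between the lists was not tested. The basophil protease gene Mcpt8 had larger values, 1.19 in Poly (adjusted p = 3.93e-05) and 1.10 in Ortho (adjusted p = 4.24e-05). Its mean level was 98.7 FPKM in Pro and 223 in Poly.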
